A study of Mus musculus with 8 samples.

Results

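The Grainyhead-like genes Grhl1, Grhl2 and Grhl3, the Ovo-like genes Ovol1 and Ovol2, the Krüppel-like genes Klf4 and Klf5, and the Ets genes Elf3 and Ehf encode transcription factors of epithelial barriers, and their loci were followed across medullary thymic epithelial cells (mTEC). The 9 genes were chosen by name, with earlier results of these data known. Every peak of open chromatin whose nearest transcription start the authors' annotation gave as one of these genes was taken, which made 125 of 74090 merged peaks, 33 of them within 10 kb of the start. ATAC-seq, which maps open chromatin by letting a transposase insert sequencing adapters where DNA is reachable, was run on 4 populations sorted from the thymus of C57BL/6 mice, with 2 libraries each. All cells were CD45-Epcam+ and came from thymi digested with collagenase, dispase and DNase and enriched on Percoll. The gates were MHCIIlowItgb4+ for mTEC-I, MHCIIhigh for mTEC-II, Ly6D+ for mTEC-III and MHCIIlowItgb4-L1cam+ for mTEC-IV. The labels give no age, sex or pooling of mice, and nothing in them ties the 2 libraries of a population to separate animals. The spread behind each p-value is that between libraries and may be technical.

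Grainyhead-like factors bind their sites even in closed chromatin and keep junction and barrier genes accessible, with GRHL2 acting in simple and stratified epithelia and GRHL3 in the barrier of the skin. OVOL factors are zinc finger repressors that hold back the genes of the mesenchymal state. KLF4 drives terminal differentiation of barrier epithelium and KLF5 maintains proliferating progenitors of gut and skin, while ELF3 and EHF are Ets factors found almost exclusively in epithelia. The thymic medulla contains cells that resemble keratinocytes, tuft cells and other peripheral epithelia, and such cells expose developing T cells to proteins of those tissues.

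Libraries held between 3606436 and 10374623 tags. The share of tags inside merged peaks was 14.2% to 19.7% in mTEC-I, mTEC-II and mTEC-IV but 8.44% and 11% in mTEC-III, so values were scaled by TMM factors and are given as scaled tags per 10000000. With the authors' scaling to total tags alone, the median gene in mTEC-I stood 0.99 above mTEC-III on the log2 scale. Directions against mTEC-III are therefore relative to the bulk of peaks. A value measures accessibility, not expression, and in sorted bulk cells fewer cells with a region open and a less open region in each cell cannot be told apart. Among the genes of the gates and the population markers, Krt5, a basal keratin, was highest in mTEC-I (101.4 and 104 in the mTEC-I libraries, 26.5 and 16.2 in those of mTEC-II, 22.1 and 20.4 in those of mTEC-III and 17.9 and 14.1 in those of mTEC-IV). Aire, the regulator of tissue-restricted antigens, was highest in mTEC-II (20.02 and 20.5 in the mTEC-I libraries, 78.5 and 64.8 in those of mTEC-II, 37.3 and 53.2 in those of mTEC-III and 36.4 and 32.9 in those of mTEC-IV). Trpm5, a tuft cell ion channel, was highest in mTEC-IV (0.893 and 1.62 in the mTEC-I libraries, 1.16 and 4.62 in those of mTEC-II, 1.69 and 6.13 in those of mTEC-III and 29.3 and 35.5 in those of mTEC-IV). Epcam did not pass the test between populations (limma adjusted p = 0.706), and no merged peak lay within 10 kb of Ptprc, the gene of CD45. Nor did the gate genes Itgb4 (limma adjusted p = 0.190), Ly6d (0.158) and L1cam (0.0645). H2-Aa, an MHC class II gene, passed (1.98e-04). It stood at 242 and 239 in the mTEC-I libraries, 338 and 297 in those of mTEC-II, 316 and 263 in those of mTEC-III and 177 and 151 in those of mTEC-IV.

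Promoter sequence from RefSeq (mouse build GRCm38.p6) was matched by symbol for 5 of the 9 genes. The 250 bases before the start are shown for the 4 of them with a single start in that table, because a peak within 1 kb of the start was present at all of these genes and the letters let a reader look for sites of the members' own families. The files use build mm9, so these coordinates cannot be set against the peak positions given elsewhere. Capitals mark CCACCC or its reverse complement GGGTGG, the core that KLF factors bind, and no other motif searched was found in these 4 windows.
Grhl3, chr4:135573633-135573882, minus strand: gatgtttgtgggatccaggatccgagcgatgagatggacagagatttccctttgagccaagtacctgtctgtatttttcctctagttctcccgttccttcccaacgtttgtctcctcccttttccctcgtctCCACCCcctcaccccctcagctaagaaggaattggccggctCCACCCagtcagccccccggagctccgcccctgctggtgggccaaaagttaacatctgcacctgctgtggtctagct
Ovol2, chr2:144331363-144331612, minus strand: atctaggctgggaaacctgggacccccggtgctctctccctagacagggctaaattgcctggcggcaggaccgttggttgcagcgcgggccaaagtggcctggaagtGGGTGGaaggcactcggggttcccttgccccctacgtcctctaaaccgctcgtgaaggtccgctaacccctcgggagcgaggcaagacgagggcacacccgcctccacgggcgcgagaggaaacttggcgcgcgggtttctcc
Klf4, chr4:55532476-55532725, minus strand: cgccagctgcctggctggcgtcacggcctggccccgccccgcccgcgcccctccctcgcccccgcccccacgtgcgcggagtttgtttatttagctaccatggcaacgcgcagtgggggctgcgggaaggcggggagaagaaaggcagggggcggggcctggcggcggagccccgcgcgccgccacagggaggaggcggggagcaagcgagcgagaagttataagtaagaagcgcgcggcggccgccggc
Elf3, chr1:135258473-135258722, minus strand: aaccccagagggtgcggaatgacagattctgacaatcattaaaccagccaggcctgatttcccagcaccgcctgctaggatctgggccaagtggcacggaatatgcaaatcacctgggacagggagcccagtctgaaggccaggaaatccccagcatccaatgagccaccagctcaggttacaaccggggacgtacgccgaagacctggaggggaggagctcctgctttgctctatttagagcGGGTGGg
Grhl3 held 2 copies of CCACCC, which began 118 and 77 bases before the start. Ovol2 and Elf3 held GGGTGG once each, and the Klf4 window held neither form. Of 32851 promoter windows of the same length, 28.1% held CCACCC on either strand, so its presence is common. AACCGGTT and AACNNGTT, the full and relaxed Grainyhead sites, occur in 0.116% and 3.64% of windows, CCGTTA, an OVOL core, in 2.18%, and AGGAAG, an ETS core bound by ELF factors, in 29.5%. Both strands were searched, AACNNGTT includes AACCGGTT, and a match is a description of letters and not a bound site.

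Of the 125 peaks, 99 passed the filter of 10 tags per 10000000 in at least 2 libraries and were tested, and 71 of them differed between the 4 populations (limma F test, adjusted p under 0.05), against 49.6% of all peaks tested. The 26 others were too low to test, so the counts are over tested peaks. A peak could pass through the 2 libraries of 1 population alone. Its call as highest there then rests on the libraries that admitted it. The filter was applied again in each fit that left out a library, so such a peak was then not tested without either of them. Klf4 had 28 peaks, Klf5 24, Grhl2 21, Ehf 19, Grhl3 12, Elf3 8, Grhl1 6, Ovol2 4 and Ovol1 3. The median gene of the series had 3, and only 0.296% of genes had as many as Klf4. The share called is given by distance, since it varied with distance over all peaks too. Within 1 kb of the start 6 of 16 tested peaks were called, against 20.7% of all such peaks. Between 1 and 10 kb the count was 10 of 13, against 51.6%, and beyond 10 kb it was 55 of 70, against 63.1%. Of the 125 peaks 73.6% lay beyond 10 kb, against 58.0% of all merged peaks. Assignment of a remote peak to a gene is by the nearest start and is no evidence that the peak acts on it. Leaving out mTEC-I replicate 1 or 2 brought the 71 calls to 47 or 45, and leaving out mTEC-IV replicate 1 or 2 brought them to 34 or 33, with 1 library of that population left.

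**Figure D1:**
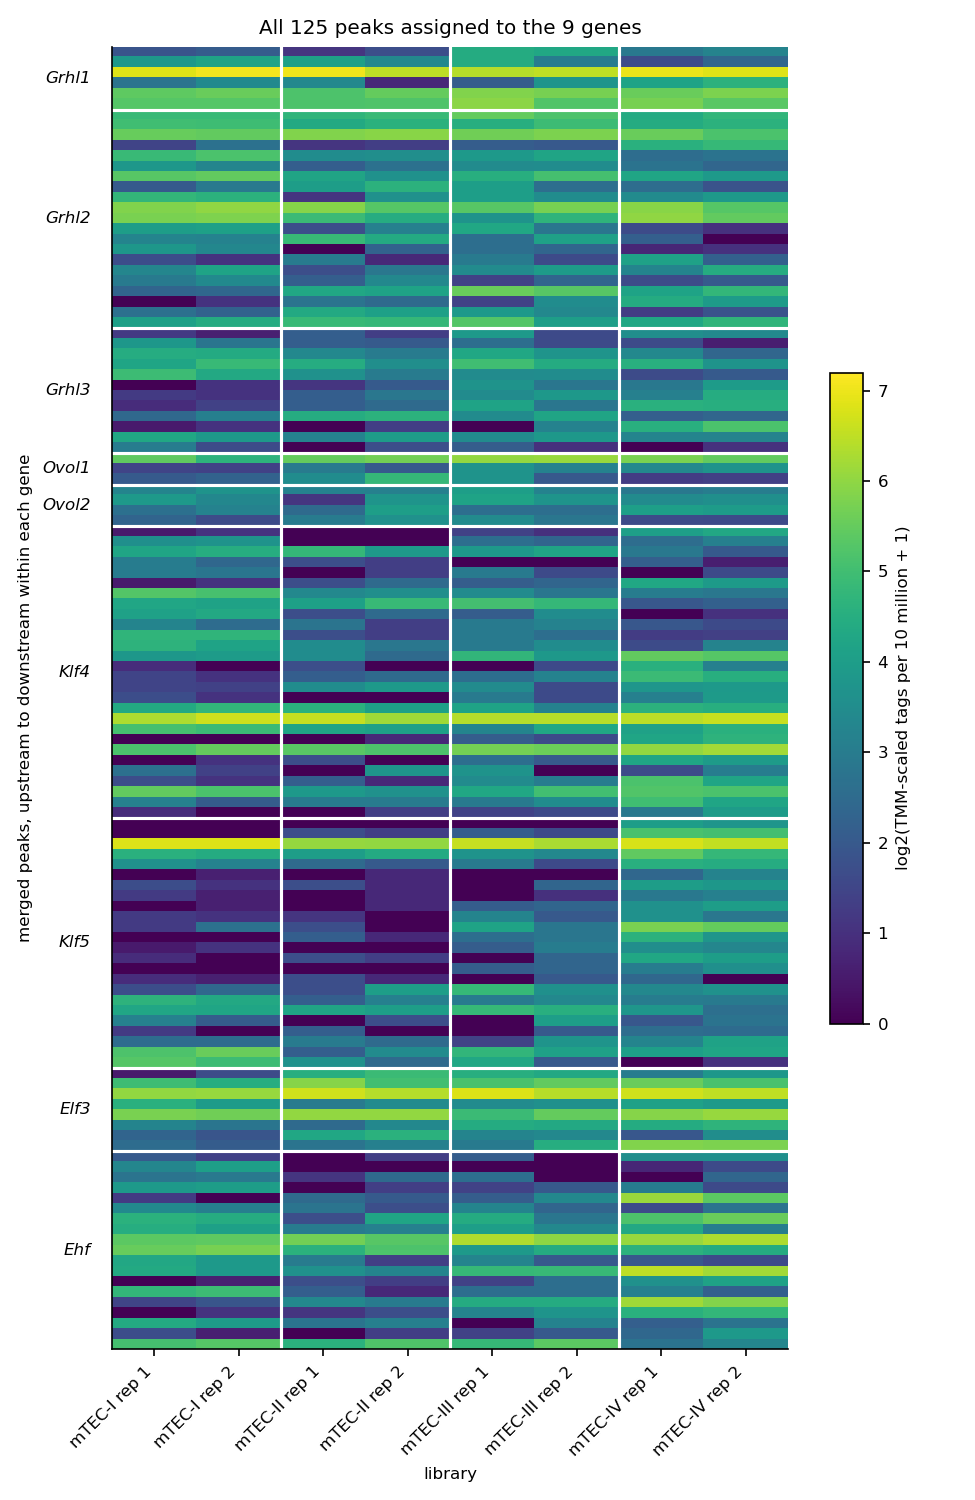
All 125 merged peaks assigned to the 9 genes (rows, upstream to downstream within each gene) in the 8 libraries (columns), coloured by log2(scaled tags per 10000000 + 1). The brightest rows are peaks at the starts, which are bright in all 4 populations, while many rows of Klf4, Klf5 and Ehf are bright in the mTEC-IV libraries and dark elsewhere.

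Peaks higher in mTEC-IV than in mTEC-II outnumbered those lower, under each of the 4 scalings. Of 99 tested peaks 36 were higher in mTEC-IV than in mTEC-II (background 13.4%) and 11 were lower (background 13.8%). Between mTEC-I and mTEC-IV, 33 peaks were higher in mTEC-IV (background 19.4%) and 22 were higher in mTEC-I (background 23%). Between mTEC-III and mTEC-IV, 20 were higher in mTEC-IV (background 10.3%) and 13 in mTEC-III (background 12.3%). These 3 comparisons share the mTEC-IV libraries. Against mTEC-II, 16 peaks were higher in mTEC-I (background 10.5%) and 7 in mTEC-II (background 9.6%). Between mTEC-I and mTEC-III the split was 9 higher in mTEC-I (background 11.4%) and 15 in mTEC-III (background 11.9%), but it was 37 and 6 with the authors' scaling, so no direction is read from it. That scaling also moved the split between mTEC-III and mTEC-IV to 4 and 38 and that between mTEC-I and mTEC-II to 21 and 5, and left 12 and 31 between mTEC-II and mTEC-IV. With TMM from peaks near starts, 32 peaks were higher in mTEC-IV than in mTEC-II and 32 than in mTEC-I, and with cyclic loess 29 and 36. TMM from peaks near starts gave 15 higher in mTEC-III and 16 in mTEC-IV, a nearly even split. The authors' scaling gave 25 higher in mTEC-I and 29 in mTEC-IV, closer to even than with TMM. Cyclic loess gave 6 and 16 between mTEC-III and mTEC-IV and 15 and 15 between mTEC-I and mTEC-II. Between mTEC-II and mTEC-III limma called 0 peaks (background 0.0734%), while 21 had an unadjusted p under 0.05, and edgeR and DESeq2 on the recovered read ends also called 0. Counts of peaks between populations rest on few libraries. A peak that passed the filter in only 2 libraries was not tested in a fit without 1 of them. In either direction, the 23 calls between mTEC-I and mTEC-II became 2 or 4 without mTEC-I replicate 1 or 2 and 11 without mTEC-II replicate 1. The 24 between mTEC-I and mTEC-III became 6 or 5 without mTEC-I replicate 1 or 2 and 12 without either mTEC-IV library, and the 55 between mTEC-I and mTEC-IV became 34 without either mTEC-I library and 22 or 17 without mTEC-IV replicate 1 or 2. The 47 between mTEC-II and mTEC-IV became 30 without mTEC-II replicate 1 and 9 or 14 without mTEC-IV replicate 1 or 2. The 33 between mTEC-III and mTEC-IV became 21 without mTEC-III replicate 1 and 4 or 6 without mTEC-IV replicate 1 or 2, and without mTEC-III replicate 2 limma called 2 peaks between mTEC-II and mTEC-III.

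Some peaks set 1 population apart, in that they passed the test in the same direction against all 3 others. By that measure 15 tested peaks were highest in mTEC-IV (background 7.04%), namely 5 of Klf5, 4 of Klf4, 3 of Ehf and 1 each of Grhl2, Grhl3 and Elf3. Most of these 15, namely those of Klf5, Klf4, Grhl2 and Grhl3 and 1 of Ehf, passed the filter only through the mTEC-IV libraries. Their calls as highest there rest on the libraries that admitted them. Peaks of the background could pass that way too. Another 6 were lowest in mTEC-IV (background 6.18%). In mTEC-I 4 were highest (background 4.77%), namely 2 of Klf4 and 2 of Ehf, and 2 were lowest (background 3.68%), at Grhl2 and Elf3. Without mTEC-IV replicate 1 or 2 the 15 peaks highest in mTEC-IV became 0 or 1, without mTEC-III replicate 1 they became 9, and the 4 highest in mTEC-I became 0 without either mTEC-I library. The 6 lowest in mTEC-IV became 2 without mTEC-II replicate 1 and 3 without mTEC-III replicate 1 or either mTEC-IV library. The 2 lowest in mTEC-I became 0 without mTEC-I replicate 1 and 4 without mTEC-III replicate 1, and the 4 highest in mTEC-I became 2 without mTEC-IV replicate 2. Without 1 mTEC-IV library, the peaks admitted by the mTEC-IV libraries alone were not tested. The fall in peaks highest in mTEC-IV was therefore in large part peaks no longer tested, not failed calls. Some members had opposite changes at 1 gene, as many genes did. Of the 7 members with at least 5 tested peaks, 5 had peaks called higher in mTEC-I and others called higher in mTEC-IV, against 52.3% of genes with at least 5. More tested peaks give more room for calls both ways, and that share was not matched for their number. Grhl2, Klf4, Klf5 and Ehf had 19, 21, 16 and 16.

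**Figure D2:**
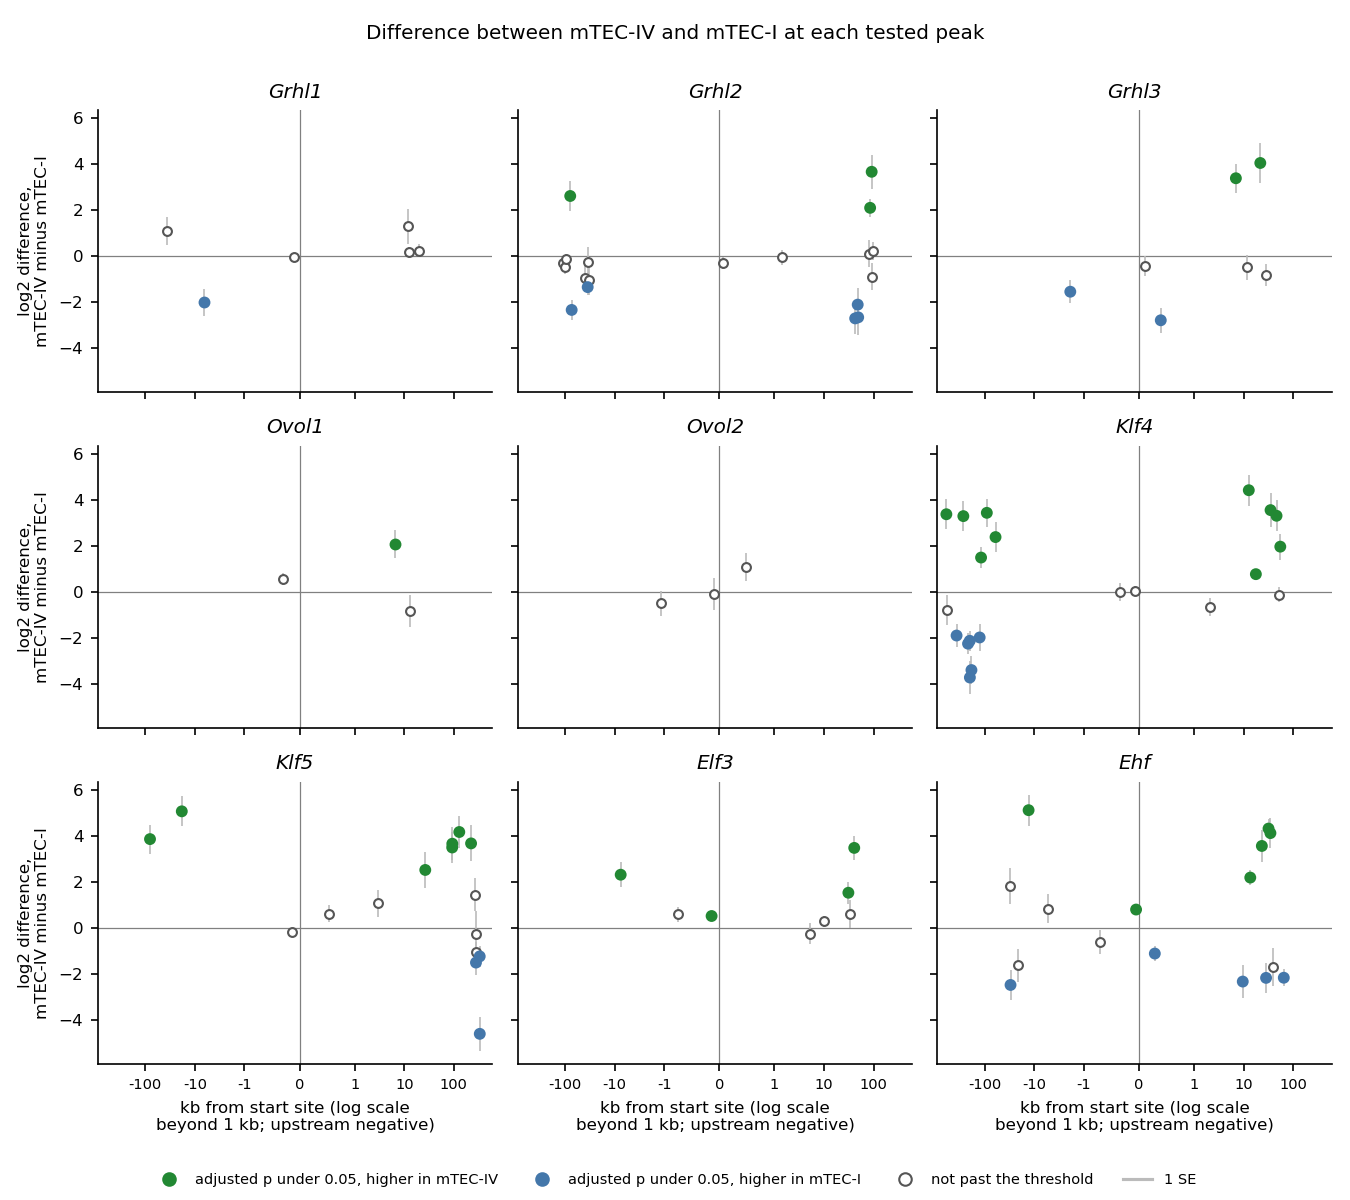
Log2 difference mTEC-IV minus mTEC-I (vertical axis, bars 1 SE) of each of the 99 tested peaks against its distance from the start in kb (horizontal axis, log scale beyond 1 kb), by gene. Filled points passed an adjusted p of 0.05, 33 of them higher in mTEC-IV and 22 higher in mTEC-I, and most lie away from the start.

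GRHL2, the Grainyhead factor most closely tied to E-cadherin and junction genes, kept an open promoter in all populations while peaks around it changed in different directions. The peak at the start (chr15:37162704-37163000) stood at 56.5 and 63.1 scaled tags in the mTEC-I libraries, 58.9 and 38.5 in those of mTEC-II, 39.0 and 52.2 in those of mTEC-III and 60.0 and 38.7 in those of mTEC-IV. These ranges overlap, and the peak was not called over the populations (adjusted p = 0.588), except with the authors' scaling (adjusted p = 0.0224). A peak 1403 bases into the gene, in intron 1 of 15 (chr15:37164058-37164330), stood at 53.4 and 55.5 scaled tags in the mTEC-I libraries, 28.8 and 20.8 in those of mTEC-II, 11.9 and 24.5 in those of mTEC-III and 63.6 and 43.4 in those of mTEC-IV. Both mTEC-I and mTEC-IV libraries lay above all mTEC-II and mTEC-III libraries there. It was higher in mTEC-I than in mTEC-III by a log2 difference of 1.61 ± 0.34 (SE), adjusted p = 0.00383, and higher in mTEC-IV than in mTEC-III by 1.56 ± 0.34 (SE), adjusted p = 0.00436.

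Deep in intron 8 of Grhl2, 85092 bases from the start (chr15:37247726-37248040), a peak was lowest in mTEC-I. It stood at 4.00 and 4.32 scaled tags in the mTEC-I libraries, 18.5 and 17.0 in those of mTEC-II, 45.8 and 38.9 in those of mTEC-III and 17.1 and 26.1 in those of mTEC-IV, and no mTEC-I value reached those of another population. The log2 difference was 3.07 ± 0.39 (SE), adjusted p = 1.76e-04, for mTEC-III over mTEC-I and 2.10 ± 0.39 (SE), adjusted p = 4.97e-04, for mTEC-IV over mTEC-I. Upstream, an intergenic peak 78512 bases before the start (chr15:37084204-37084355) was open in mTEC-IV. Its values were 1.78 and 5.39 in the mTEC-I libraries, 1.16 and 1.54 in those of mTEC-II, 3.40 and 3.06 in those of mTEC-III and 22.9 and 27.2 in those of mTEC-IV, a log2 difference of 3.47 ± 0.65 (SE), adjusted p = 0.00103, over mTEC-II. That peak passed the filter through the mTEC-IV libraries alone, so its p-value was not independent of the filter. Some called peaks of Grhl2 were lowest in mTEC-IV instead. One in intron 4, 47752 bases from the start (chr15:37210473-37210613) and named after its values were seen, was lower in mTEC-IV than in each other population, at 8.45 and 8.09 in the mTEC-I libraries, 27.7 and 20.05 in those of mTEC-II, 5.09 and 16.4 in those of mTEC-III and 3.57 and 0 in those of mTEC-IV. In all, 12 of 19 tested Grhl2 peaks were called, 11 of them among the 17 beyond 10 kb, which is near the 63.1% of all such peaks. Between mTEC-I and mTEC-IV 5 were higher in mTEC-I (background 23%) and 3 in mTEC-IV (background 19.4%).

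The sum of the 2 Grhl2 peaks within 10 kb was 109.9 and 119 scaled tags in the mTEC-I libraries, 87.7 and 59.4 in those of mTEC-II, 50.9 and 76.7 in those of mTEC-III and 124 and 82.0 in those of mTEC-IV. It differed between populations (adjusted p = 0.0269), and 1 pair was called, mTEC-I over mTEC-III by 0.86 ± 0.24 (SE), adjusted p = 0.0200. The call between populations ended without either mTEC-I library, mTEC-III replicate 1 or mTEC-IV replicate 1 (adjusted p up to 0.0951). That of the pair ended without mTEC-I replicate 2 or mTEC-III replicate 1 (up to 0.172) and with thinning to equal depth. With peaks within 1 kb alone neither was called. Over all 21 peaks the sum was 406 and 433 in the mTEC-I libraries, 352 and 348 in those of mTEC-II, 392 and 396 in those of mTEC-III and 369 and 331 in those of mTEC-IV, and that total was not called (adjusted p = 0.0974).

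Grhl3, whose product is needed for the epidermal barrier and for closure of the neural tube, had peaks of opposite direction within its first intron. A peak 393 bases into the gene, in intron 1 of 15 (chr4:135129079-135129205), was open in mTEC-I and nearly closed in mTEC-IV, at 29.8 and 19.4 scaled tags in the mTEC-I libraries, 11.5 and 6.93 in those of mTEC-II, 10.2 and 10.2 in those of mTEC-III and 2.147 and 3.13 in those of mTEC-IV. The log2 difference was 2.80 ± 0.54 (SE), adjusted p = 6.19e-04. Further into the same intron, 6915 bases from the start (chr4:135122556-135122685), the order was the opposite. That peak stood at 0.893 and 1.62 scaled tags in the mTEC-I libraries, 3.46 and 4.63 in those of mTEC-II, 17.0 and 6.14 in those of mTEC-III and 22.9 and 21.9 in those of mTEC-IV, higher in mTEC-IV than in mTEC-I by 3.39 ± 0.63 (SE), adjusted p = 4.86e-04. In intron 9, 21472 bases from the start (chr4:135107982-135108144), another site stood at 0.442 and 1.077 in the mTEC-I libraries, 0 and 1.54 in those of mTEC-II, 0 and 8.18 in those of mTEC-III and 22.1 and 35.0 in those of mTEC-IV. It was higher in mTEC-IV than in each other population, with a log2 difference of 3.25 ± 0.89 (SE), adjusted p = 0.0160, over mTEC-III. The peaks 6915 and 21472 bases from the start passed the filter through the mTEC-IV libraries alone, so their p-values were not independent of the filter. The peak over the first exon (chr4:135129301-135129565) was not called (adjusted p = 0.413).

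Summed over 6 peaks within 10 kb, Grhl3 stood at 70.7 and 71.2 scaled tags in the mTEC-I libraries, 49.6 and 38.5 in those of mTEC-II, 98.4 and 68.5 in those of mTEC-III and 70.7 and 76.8 in those of mTEC-IV. Both mTEC-II libraries were the lowest with TMM scaling, but with the authors' scaling they overlapped mTEC-III (59.6 and 40.2 against 56.5 and 51.25). With TMM the sum differed between populations (adjusted p = 0.0197) and 1 pair was called, mTEC-IV over mTEC-II by 0.74 ± 0.23 (SE), adjusted p = 0.0354. The pair was lost without either mTEC-I library, without mTEC-II replicate 2, without either mTEC-IV library (adjusted p up to 0.169) and with 7 of the other settings, and the test over the populations without mTEC-II replicate 2 (adjusted p = 0.130), with thinning and with peaks within 1 kb alone. With only peaks within 1 kb the direction turned, as the log2 difference mTEC-II minus mTEC-IV was then 0.31. Grhl1, the desmosomal regulator of the family, was not called in its sum within 10 kb (adjusted p = 0.222), which stood at 129 and 152 scaled tags in the mTEC-I libraries, 147 and 97.9 in those of mTEC-II, 104 and 97.2 in those of mTEC-III and 127 and 118 in those of mTEC-IV. With the authors' scaling it was called (adjusted p = 2.61e-04). Of its 6 peaks 2 were called, against 49.6% of all peaks tested. The one highest in mTEC-III passed the filter through the libraries of that population alone. One lies 35664 bases upstream in intron 7 of Taf1b (chr12:25221411-25221565) and stood at 2.67 and 3.24 in the mTEC-I libraries, 1.16 and 2.31 in those of mTEC-II, 20.4 and 18.4 in those of mTEC-III and 6.43 and 8.36 in those of mTEC-IV, higher in mTEC-III than in mTEC-I by 2.37 ± 0.61 (SE), adjusted p = 0.0120. The other, 6654 bases upstream (chr12:25250412-25250584), was lower in mTEC-IV than in each other population, at 13.3 and 17.3 in the mTEC-I libraries, 16.2 and 9.25 in those of mTEC-II, 20.4 and 7.16 in those of mTEC-III and 2.147 and 4.18 in those of mTEC-IV, and lost its call (adjusted p = 0.0302) without either mTEC-I library, mTEC-II replicate 1 or either mTEC-IV library and with cyclic loess or thinning.

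Ovol1, a repressor that brings epidermal progenitors out of the cell cycle, had the lowest summed accessibility in mTEC-I. Its 2 peaks within 10 kb summed to 44.0 and 25.9 scaled tags in the mTEC-I libraries, 50.8 and 53.2 in those of mTEC-II, 76.4 and 75.7 in those of mTEC-III and 62.2 and 55.4 in those of mTEC-IV. Both mTEC-I libraries lay below the other 6. The log2 difference was 1.15 ± 0.26 (SE), adjusted p = 0.00518, for mTEC-III over mTEC-I and 0.78 ± 0.26 (SE), adjusted p = 0.0344, for mTEC-IV over mTEC-I. With the authors' scaling neither was called, the differences mTEC-I minus mTEC-III and mTEC-I minus mTEC-IV being -0.16 and -0.445. The mTEC-III pair was also lost without mTEC-I replicate 2 (adjusted p = 0.213), and the mTEC-IV pair without that library or either mTEC-IV library (up to 0.768). The mTEC-IV pair was lost too with TMM from peaks near starts or from gene sums, cyclic loess, edgeR, DESeq2 and peaks within 1 kb alone. The test over the populations (adjusted p = 0.0131) was likewise lost without mTEC-I replicate 2 (adjusted p = 0.242), with the authors' scaling (adjusted p = 0.561), without both mTEC-III libraries (adjusted p = 0.0729) and with peaks within 1 kb alone (adjusted p = 0.0776).

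All 3 Ovol1 peaks were called, against 49.6% of all peaks tested. The intron 1 peak passed the filter through the mTEC-IV libraries alone, and the one 12840 bases past the start through those of mTEC-II. The promoter peak (chr19:5560707-5561047) stood at 42.3 and 24.3 scaled tags in the mTEC-I libraries, 43.8 and 50.1 in those of mTEC-II, 64.5 and 67.5 in those of mTEC-III and 52.9 and 43.4 in those of mTEC-IV, higher in mTEC-III than in mTEC-I by 1.02 ± 0.27 (SE), adjusted p = 0.0141. An intron 1 peak 6611 bases from the start (chr19:5553905-5554023) held 1.78 and 1.62 in the mTEC-I libraries, 6.92 and 3.08 in those of mTEC-II, 11.9 and 8.18 in those of mTEC-III and 9.29 and 12.01 in those of mTEC-IV. The peak 12840 bases past the start (chr19:5547665-5547805) behaved otherwise, with 3.11 and 3.78 in the mTEC-I libraries, 10.4 and 26.98 in those of mTEC-II, 11.9 and 3.06 in those of mTEC-III and 1.43 and 1.57 in those of mTEC-IV, and was higher in mTEC-II than in mTEC-IV by 2.84 ± 0.71 (SE), adjusted p = 0.00658. The promoter peak lost its call without mTEC-I replicate 2, mTEC-II replicate 2, either or both mTEC-III libraries or mTEC-IV replicate 1, the intron peak without either mTEC-I library, both of them with the authors' scaling and with DESeq2, and the downstream peak without either mTEC-IV library. Ovol2, which guards epithelial identity against the mesenchymal program, was called in 0 of its 3 tested peaks by limma (background 49.6%), with 0 at an unadjusted p under 0.05 and 0 by edgeR or DESeq2. Its sum within 10 kb was low, at 27.6 and 29.1 scaled tags in the mTEC-I libraries, 13.8 and 35.5 in those of mTEC-II, 37.3 and 25.6 in those of mTEC-III and 32.2 and 32.9 in those of mTEC-IV (adjusted p = 0.633). Its promoter peak (chr2:144157850-144157976) held 13.8 and 9.17 in the mTEC-I libraries, 1.16 and 12.3 in those of mTEC-II, 17.0 and 12.3 in those of mTEC-III and 10.0 and 10.97 in those of mTEC-IV, and passed only without mTEC-II replicate 2 (adjusted p = 0.0116).

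**Figure D3:**
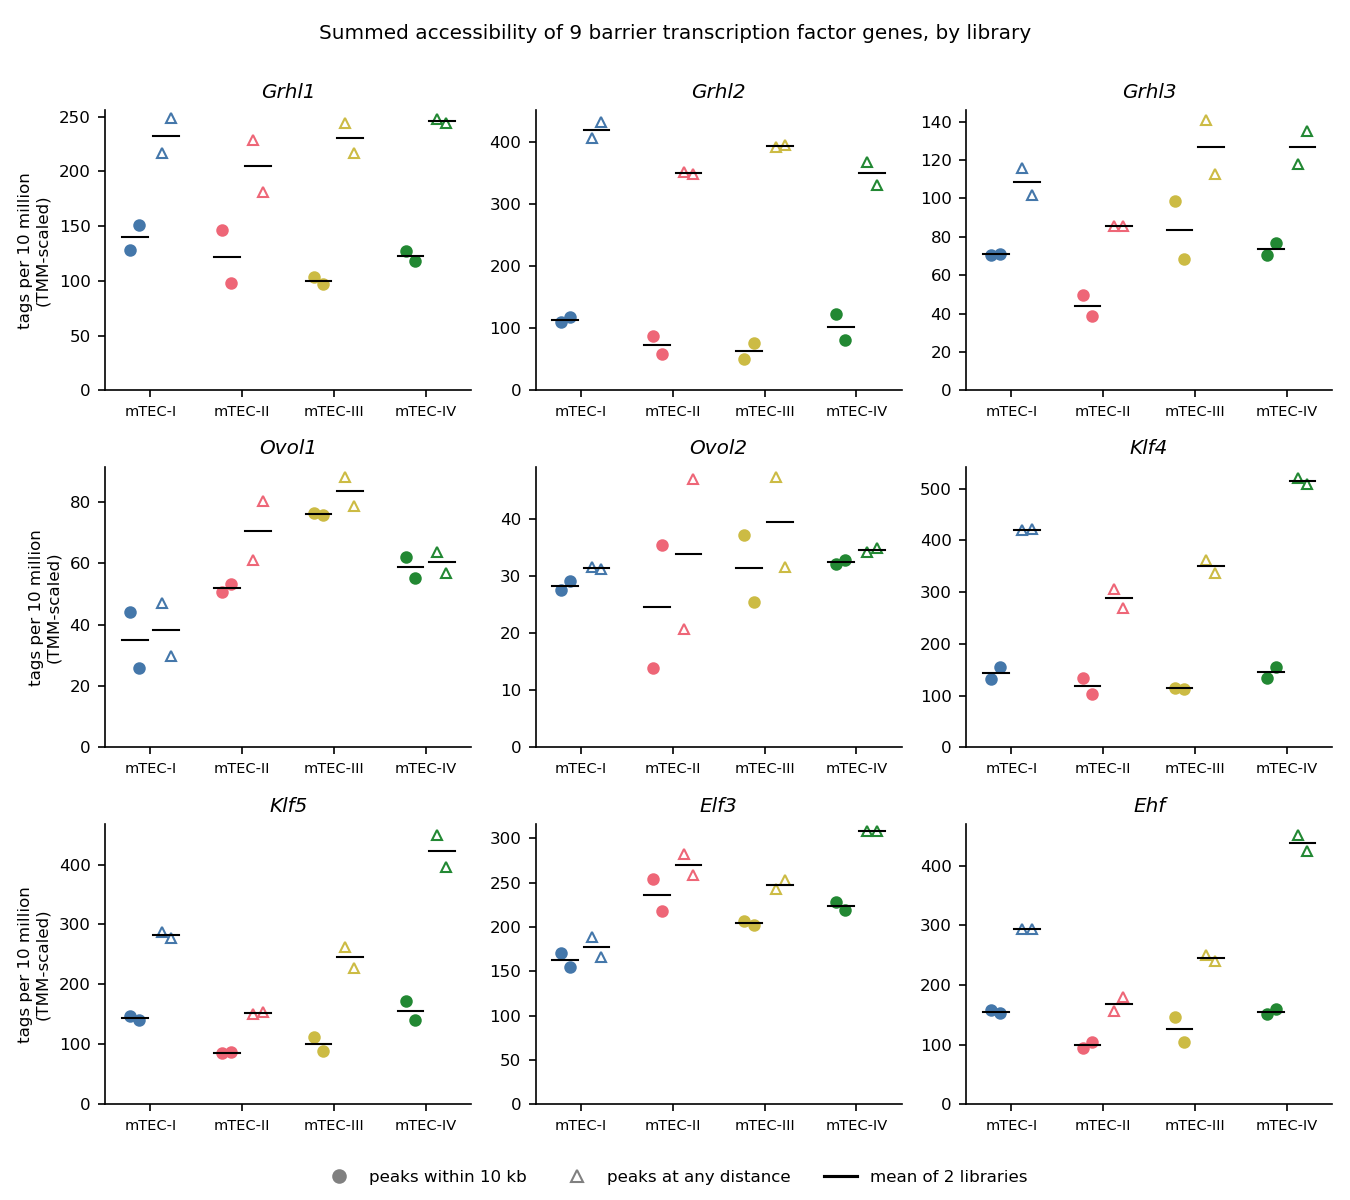
Summed scaled tags per 10000000 (vertical axis) of each of the 9 genes in the 8 libraries by population, for peaks within 10 kb of the start (filled circles) and at any distance (open triangles), with bars at the mean of 2 libraries. For Klf4, Klf5 and Ehf the triangles of mTEC-IV lie above all others, while their circles in mTEC-I and mTEC-IV are close.

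Klf5, which maintains progenitors in gut, skin and lung epithelium, had the smallest p of the 9 members for its sum within 10 kb. It stood at 147 and 141 scaled tags in the mTEC-I libraries, 85.4 and 87.1 in those of mTEC-II, 112 and 89.0 in those of mTEC-III and 173 and 140.0 in those of mTEC-IV. All mTEC-I and mTEC-IV libraries lay above all mTEC-II and mTEC-III libraries. The log2 difference was 0.73 ± 0.17 (SE), adjusted p = 0.00882, for mTEC-I over mTEC-II and 0.84 ± 0.17 (SE), adjusted p = 0.00262, for mTEC-IV over mTEC-II. Against mTEC-III it was 0.63 ± 0.17 (SE), adjusted p = 0.0228, for mTEC-IV and 0.52 ± 0.17 (SE), adjusted p = 0.0449, for mTEC-I. The test over the 4 populations (adjusted p = 0.00210) held in all 8 fits that left out a library, with adjusted p between 8.66e-04 and 0.0242. Of the pairs, that of mTEC-I and mTEC-II ended without mTEC-II replicate 1 (adjusted p = 0.0513), and that of mTEC-II and mTEC-IV without mTEC-IV replicate 1 (adjusted p = 0.0538) and with the authors' scaling. Of the pairs with mTEC-III, mTEC-I over mTEC-III was lost without 5 of 8 libraries (either mTEC-I library, mTEC-III replicate 2 or either mTEC-IV library, adjusted p up to 0.206) and mTEC-IV over mTEC-III without 4 (either mTEC-I library, mTEC-III replicate 2 or mTEC-IV replicate 1, up to 0.206). Both of these pairs also ended with TMM from peaks near starts, DESeq2 and peaks within 1 kb alone, the mTEC-I pair with thinning to equal depth and with peaks at any distance, and the mTEC-IV pair with TMM from gene sums. The promoter peak (chr14:99697673-99697876) had the highest values of the 3, at 113 and 112 in the mTEC-I libraries, 65.8 and 64.0 in those of mTEC-II, 93.3 and 77.7 in those of mTEC-III and 108 and 92.5 in those of mTEC-IV (adjusted p = 0.0130).

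Remote peaks of Klf5 set mTEC-IV apart. An intergenic peak 18267 bases upstream (chr14:99679579-99679707) stood at 0 and 0 scaled tags in the mTEC-I libraries, 2.31 and 1.54 in those of mTEC-II, 3.40 and 2.05 in those of mTEC-III and 34.3 and 31.9 in those of mTEC-IV. Both mTEC-IV values lay far above the other 6, and the log2 difference was 3.22 ± 0.65 (SE), adjusted p = 0.00281, over mTEC-III. This peak passed the filter through the mTEC-IV libraries alone, so its p-value was not independent of the filter. A peak 80004 bases upstream, in intron 15 of 17 of the neighbouring gene Pibf1 (chr14:99617847-99617965), held no read end in any of the 6 libraries of mTEC-I, mTEC-II and mTEC-III. In mTEC-IV it held 15.0 and 12.5 scaled tags (adjusted p over the populations = 3.19e-04), and it lost the call with cyclic loess scaling. It passed the filter through those libraries alone, so that p-value was not independent of the filter. Another site, 93297 bases past the start (chr14:99791110-99791304) stood at 1.33 and 5.39 in the mTEC-I libraries, 2.31 and 0 in those of mTEC-II, 17.0 and 6.14 in those of mTEC-III and 52.9 and 44.4 in those of mTEC-IV, higher in mTEC-IV than in mTEC-II by 4.77 ± 0.72 (SE), adjusted p = 2.72e-04.

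The other Klf5 peaks highest in mTEC-IV lay 26610 and 223164 bases past the start and are named after their values were seen. Both passed the filter through the mTEC-IV libraries alone, as did the peak 93297 bases past the start. They held 2.23 and 1.077 in the mTEC-I libraries, 2.31 and 0.766 in those of mTEC-II, 0 and 4.09 in those of mTEC-III and 15.0 and 13.1 in those of mTEC-IV for the nearer one, and 0.893 and 0 in the mTEC-I libraries, 2.31 and 1.54 in those of mTEC-II, 0 and 4.09 in those of mTEC-III and 18.6 and 15.2 in those of mTEC-IV for the farther one. Not every remote Klf5 peak followed that order. The farthest one, 333875 bases past the start (chr14:100031669-100031902) and named here after its values were seen, stood at 38.7 and 29.7 in the mTEC-I libraries, 11.5 and 4.63 in those of mTEC-II, 18.7 and 3.06 in those of mTEC-III and 0 and 1.04 in those of mTEC-IV. It was lower in mTEC-IV than in each other population, by 4.61 ± 0.74 (SE), adjusted p = 1.96e-04, against mTEC-I. Of 16 tested Klf5 peaks 13 were called (49.6% of all peaks). Between mTEC-I and mTEC-IV 7 were higher in mTEC-IV (background 19.4%) and 3 in mTEC-I (background 23%).

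Klf4, which drives terminal differentiation of epidermis and colon, was not called at its promoter with TMM scaling. The peak 73 bases upstream of the start (chr4:55545315-55545525) stood at 78.3 and 99.8 scaled tags in the mTEC-I libraries, 94.6 and 70.9 in those of mTEC-II, 83.2 and 84.9 in those of mTEC-III and 87.2 and 95.6 in those of mTEC-IV, with overlapping ranges (adjusted p = 0.897), and was called with the authors' scaling (adjusted p = 0.0298). Its sum of 4 peaks within 10 kb was 133 and 156 in the mTEC-I libraries, 135 and 103 in those of mTEC-II, 115 and 114 in those of mTEC-III and 135 and 155 in those of mTEC-IV, and that sum was not called (adjusted p = 0.217), except with the authors' scaling (adjusted p = 7.76e-04) and with wider windows. Beyond 10 kb 17 of 18 tested peaks were called, against 63.1% of all such peaks. A peak 12618 bases past the start (chr4:55532665-55532793) held 0 and 0 scaled tags in the mTEC-I libraries, 0 and 0.766 in those of mTEC-II, 3.40 and 2.05 in those of mTEC-III and 17.9 and 24.03 in those of mTEC-IV. Its log2 difference was 2.57 ± 0.67 (SE), adjusted p = 0.0124, for mTEC-IV over mTEC-III. A peak 595571 bases upstream (chr4:56140848-56140988), the most remote of all 125, held 0.442 and 1.077 in the mTEC-I libraries, 0 and 0 in those of mTEC-II, 1.69 and 1.02 in those of mTEC-III and 15.7 and 18.8 in those of mTEC-IV. At both sites the mTEC-IV libraries lay far above the other 6, and no fold is given against a population whose libraries are both at 0. Both peaks passed the filter through the mTEC-IV libraries alone.

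An intergenic region about 200 kb upstream of Klf4 went the other way. The peak 200957 bases upstream (chr4:55746214-55746394) stood at 18.2 and 16.7 scaled tags in the mTEC-I libraries, 16.2 and 27.8 in those of mTEC-II, 32.2 and 26.6 in those of mTEC-III and 2.86 and 3.65 in those of mTEC-IV. Both mTEC-IV values lay far below the other 6, with log2 differences of 2.84 ± 0.43 (SE), adjusted p = 4.75e-04, for mTEC-III over mTEC-IV and 2.12 ± 0.43 (SE), adjusted p = 9.35e-04, for mTEC-I over mTEC-IV. Another pair of peaks, 217624 and 186208 bases upstream and named after their values were seen, was highest in mTEC-I. The first (chr4:55762866-55763076) stood at 37.8 and 33.4 in the mTEC-I libraries, 9.23 and 10.8 in those of mTEC-II, 10.2 and 6.14 in those of mTEC-III and 7.14 and 6.26 in those of mTEC-IV. The other (chr4:55731443-55731667) stood at 25.4 and 25.3 in the mTEC-I libraries, 2.31 and 1.54 in those of mTEC-II, 6.79 and 5.11 in those of mTEC-III and 1.43 and 1.57 in those of mTEC-IV, higher in mTEC-I than in mTEC-II by 3.18 ± 0.61 (SE), adjusted p = 0.00266. Upstream too, peaks 270521 and 91061 bases before the start, also named after their values were seen, were highest in mTEC-IV. The farther one (chr4:55815792-55815944) held 0.442 and 1.077 in the mTEC-I libraries, 2.31 and 4.63 in those of mTEC-II, 3.40 and 4.09 in those of mTEC-III and 18.6 and 14.1 in those of mTEC-IV. The nearer one (chr4:55636334-55636483) held 1.78 and 1.077 in the mTEC-I libraries, 3.46 and 4.63 in those of mTEC-II, 5.09 and 8.18 in those of mTEC-III and 29.3 and 21.9 in those of mTEC-IV. The peaks 270521 and 91061 bases upstream passed the filter through the mTEC-IV libraries alone, and the one 186208 bases upstream through those of mTEC-I. Across the locus, of 21 tested peaks 10 were higher in mTEC-IV than in mTEC-I (background 19.4%) and 6 were lower (background 23%).

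**Figure D4:**
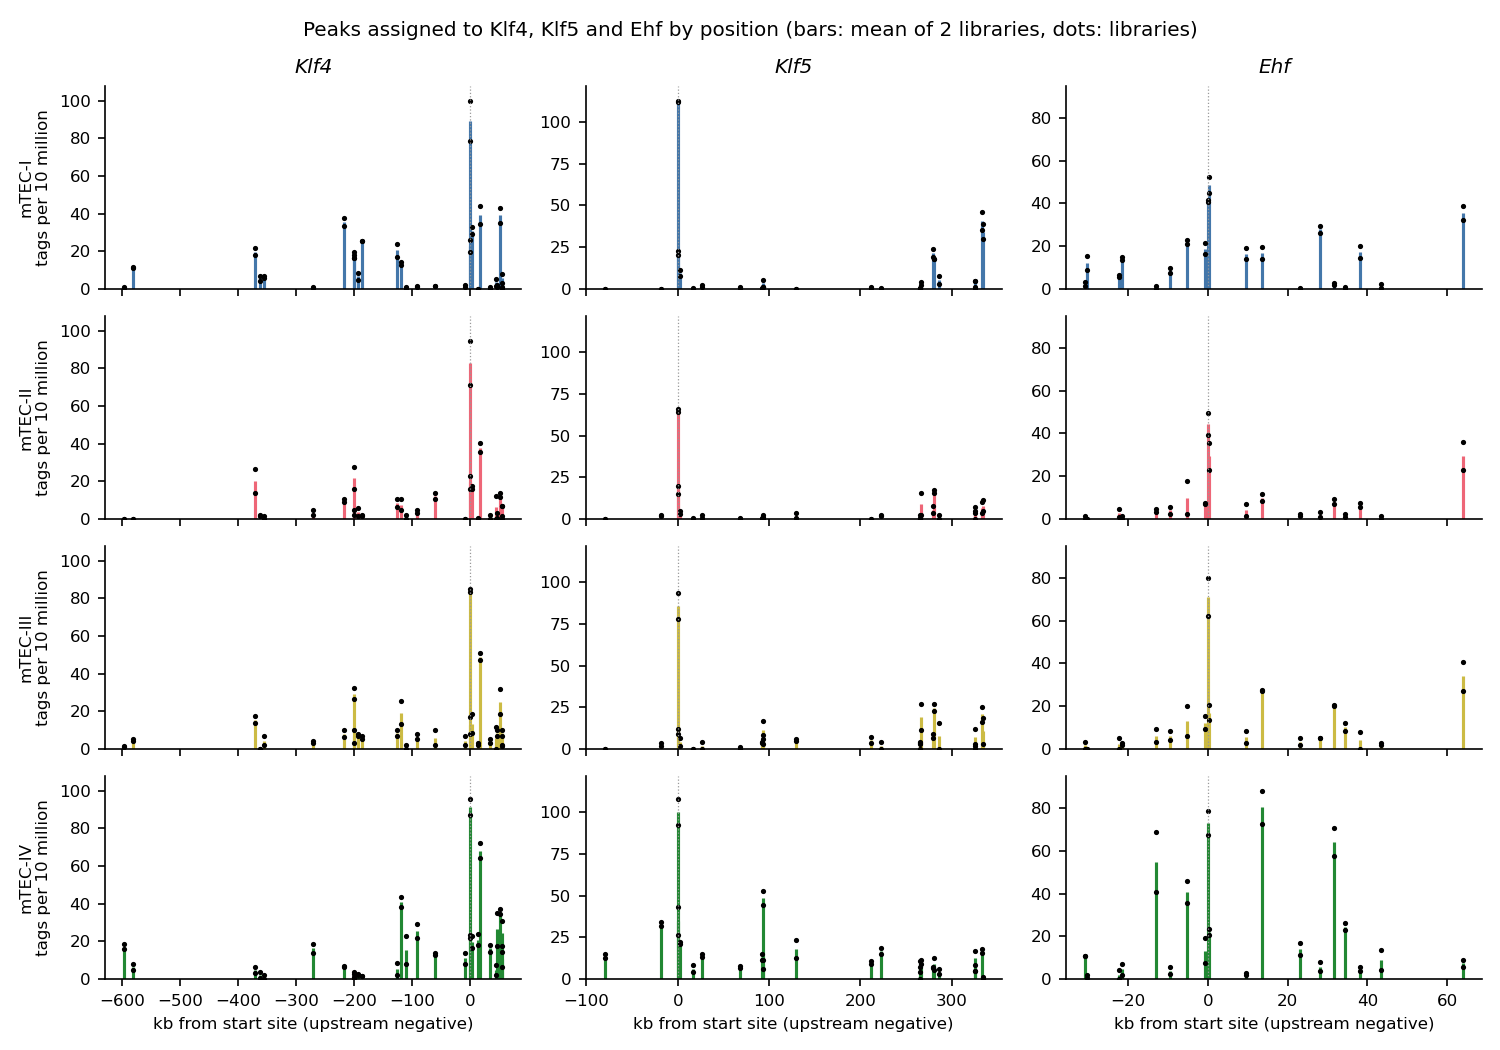
Peaks assigned to Klf4, Klf5 and Ehf by position in kb from the start (horizontal axes) in the 4 populations (rows), with bars at the mean scaled tags per 10000000 and dots for the 2 libraries. The bar at the start is tall in every row, and the mTEC-IV row has bars at positions where the other rows have little, such as 18.3 kb upstream and 93.3 kb downstream of Klf5.

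Elf3, an Ets factor of simple epithelia, had its lowest sum within 10 kb in mTEC-I with TMM scaling. Its 5 peaks within 10 kb summed to 171 and 155 scaled tags in the mTEC-I libraries, 254 and 218 in those of mTEC-II, 207 and 203 in those of mTEC-III and 229 and 219 in those of mTEC-IV, with both mTEC-I libraries below the other 6. The log2 difference was 0.53 ± 0.14 (SE), adjusted p = 0.0147, for mTEC-II over mTEC-I and 0.46 ± 0.14 (SE), adjusted p = 0.0203, for mTEC-IV over mTEC-I. The test over the populations (adjusted p = 0.0226) and both pairs ended without either mTEC-I library (adjusted p up to 0.560, 0.403 and 0.622), and the pair with mTEC-II also without mTEC-II replicate 1. With the authors' scaling neither pair was called, and with peaks within 1 kb alone neither pair nor the test over the populations was. The authors' scaling put Elf3 lowest in mTEC-III instead, at 119 and 151, against 224 and 204 in mTEC-I. The log2 difference mTEC-I minus mTEC-III was then 0.67 (adjusted p = 0.0354), in place of -0.33 with TMM. The pair with mTEC-IV also ended with TMM from peaks near starts or from gene sums and with DESeq2. The peak of the locus with the lowest mTEC-I values lies 7538 bases upstream, in intron 8 of 10 of the neighbouring gene Rnpep (chr1:137162495-137162679). It stood at 0.442 and 2.154 scaled tags in the mTEC-I libraries, 21.9 and 29.3 in those of mTEC-II, 22.1 and 19.4 in those of mTEC-III and 7.14 and 13.1 in those of mTEC-IV, and was lower in mTEC-I than in each other population, by 3.63 ± 0.55 (SE), adjusted p = 7.38e-04, against mTEC-II.

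Beyond 10 kb Elf3 had 3 peaks, all downstream, and they differed in direction. The peak 40704 bases past the start (chr1:137114255-137114435) stood at 4.89 and 3.24 scaled tags in the mTEC-I libraries, 5.77 and 7.71 in those of mTEC-II, 6.79 and 21.5 in those of mTEC-III and 56.4 and 54.3 in those of mTEC-IV. It was higher in mTEC-IV than in each other population, by 2.09 ± 0.53 (SE), adjusted p = 0.0104, over mTEC-III. A peak 30956 bases past the start (chr1:137124008-137124179) held 8.45 and 5.93 in the mTEC-I libraries, 4.62 and 9.25 in those of mTEC-II, 20.4 and 19.4 in those of mTEC-III and 20.7 and 24.6 in those of mTEC-IV, higher in mTEC-IV than in mTEC-II by 1.63 ± 0.47 (SE), adjusted p = 0.0161. Between them, 34073 bases past the start (chr1:137120906-137121046), a peak named after its values were seen was highest in mTEC-II, at 4.00 and 2.69 in the mTEC-I libraries, 18.5 and 23.1 in those of mTEC-II, 8.48 and 9.20 in those of mTEC-III and 2.86 and 10.4 in those of mTEC-IV. It was higher in mTEC-II than in mTEC-I by 2.33 ± 0.61 (SE), adjusted p = 0.0141, and than in mTEC-IV by 1.70 ± 0.61 (SE), adjusted p = 0.0480. The promoter peak (chr1:137155083-137155296) held 64.5 and 67.4 in the mTEC-I libraries, 102 and 83.3 in those of mTEC-II, 112 and 84.9 in those of mTEC-III and 100.7 and 90.4 in those of mTEC-IV and was not called over the populations (adjusted p = 0.0817), although it passed without mTEC-III replicate 2 and with edgeR.

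Ehf, an Ets factor of glandular and stratified epithelium, differed only in part near its start and more at remote peaks. Within 10 kb its 6 peaks summed to 159 and 153 scaled tags in the mTEC-I libraries, 94.6 and 104 in those of mTEC-II, 146 and 105 in those of mTEC-III and 151 and 159.9 in those of mTEC-IV. Both mTEC-II libraries were the lowest with TMM scaling. With the authors' scaling both mTEC-III libraries were the lowest, at 83.8 and 78.8, against 114 and 109 in mTEC-II. With TMM the sum was higher in mTEC-I than in mTEC-II by 0.64 ± 0.17 (SE), adjusted p = 0.0168, and in mTEC-IV than in mTEC-II by 0.64 ± 0.17 (SE), adjusted p = 0.0155. The test over the populations (adjusted p = 0.0157) ended without mTEC-II replicate 1 or mTEC-IV replicate 2 (up to 0.0847). The first pair ended without mTEC-I replicate 1 or mTEC-II replicate 1 (up to 0.105), and the other without mTEC-II replicate 1 or either mTEC-IV library (up to 0.102) and with the authors' scaling or TMM from peaks near starts. With peaks within 1 kb alone neither pair nor the test over the populations was called. At the start itself neighbouring peaks moved in opposite directions. The peak 55 bases upstream (chr2:103143240-103143576) held 40.5 and 41.5 in the mTEC-I libraries, 49.6 and 39.3 in those of mTEC-II, 79.8 and 62.4 in those of mTEC-III and 67.2 and 78.4 in those of mTEC-IV, higher in mTEC-IV than in mTEC-I by 0.81 ± 0.23 (SE), adjusted p = 0.00953. The peak 285 bases into intron 1 (chr2:103142931-103143206), named after its values were seen, held 44.9 and 52.3 in the mTEC-I libraries, 23.1 and 35.5 in those of mTEC-II, 13.6 and 20.5 in those of mTEC-III and 23.6 and 20.4 in those of mTEC-IV, higher in mTEC-I than in mTEC-IV by 1.110 ± 0.33 (SE), adjusted p = 0.0113. The call of the upstream peak over the 4 populations (adjusted p = 0.0103) was lost without either mTEC-I library and with the authors' scaling.

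The 3 Ehf peaks with the smallest p were all highest in mTEC-IV. Of these, the one 13071 bases upstream passed the filter through the mTEC-IV libraries alone, so its p-value was not independent of the filter. In intron 6 of 8, 31515 bases from the start (chr2:103111725-103111952), accessibility stood at 1.78 and 2.69 scaled tags in the mTEC-I libraries, 9.23 and 6.93 in those of mTEC-II, 20.4 and 20.5 in those of mTEC-III and 70.7 and 57.5 in those of mTEC-IV. The 4 populations did not overlap there, in the order mTEC-I, mTEC-II, mTEC-III and mTEC-IV. The log2 difference was 4.34 ± 0.44 (SE), adjusted p = 8.49e-06, for mTEC-IV over mTEC-I, and 1.597 ± 0.44 (SE), adjusted p = 0.0159, for mTEC-IV over mTEC-III. In intron 1, 13487 bases from the start (chr2:103129740-103129993), the values were 19.6 and 14.0 in the mTEC-I libraries, 11.5 and 8.48 in those of mTEC-II, 27.2 and 27.6 in those of mTEC-III and 87.9 and 72.6 in those of mTEC-IV. This peak was higher in mTEC-IV than in mTEC-II by 2.89 ± 0.32 (SE), adjusted p = 3.82e-05. The intergenic peak 13071 bases upstream (chr2:103156354-103156495) stood at 1.33 and 0 in the mTEC-I libraries, 4.62 and 3.08 in those of mTEC-II, 3.40 and 9.20 in those of mTEC-III and 68.6 and 40.7 in those of mTEC-IV, higher in mTEC-IV than in mTEC-III by 3.01 ± 0.67 (SE), adjusted p = 0.00521.

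Some other Ehf peaks were highest in mTEC-I. The peak in intron 4, 28135 bases from the start (chr2:103115148-103115288) and named after its values were seen, stood at 26.2 and 29.7 in the mTEC-I libraries, 3.46 and 0.766 in those of mTEC-II, 5.09 and 5.11 in those of mTEC-III and 7.86 and 3.65 in those of mTEC-IV. It was higher in mTEC-I than in each other population, by 2.24 ± 0.64 (SE), adjusted p = 0.0198, over mTEC-III. Upstream, 30309 bases before the start (chr2:103173574-103173750), a peak named for the same reason held 8.89 and 15.6 in the mTEC-I libraries, 0 and 0 in those of mTEC-II, 0 and 0 in those of mTEC-III and 0.713 and 2.09 in those of mTEC-IV. No fold is given for it against mTEC-II or mTEC-III, whose libraries were at 0. This peak and the one 28135 bases from the start passed the filter through the mTEC-I libraries alone. A peak 63961 bases past the start (chr2:103079258-103079527), also named after its values were seen, was lowest in mTEC-IV, at 32.5 and 38.8 in the mTEC-I libraries, 23.1 and 36.2 in those of mTEC-II, 27.2 and 40.9 in those of mTEC-III and 5.72 and 8.88 in those of mTEC-IV. Of 16 tested Ehf peaks 14 were called (49.6% of all peaks), with 6 higher in mTEC-IV than in mTEC-I (background 19.4%) and 5 lower (background 23%).

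Summing all assigned peaks changed the picture for the genes with many remote sites. At 10 kb 6 of the 9 members were called over the populations (Grhl2, Grhl3, Ovol1, Klf5, Elf3 and Ehf), against 29.3% of genes. Without mTEC-I replicate 2 the count was 3. At any distance 6 were called as well, against 46.5% of genes, but Klf4 took the place of Grhl2. Klf4 then stood at 419 and 422 scaled tags in the mTEC-I libraries, 306 and 269.8 in those of mTEC-II, 362 and 338 in those of mTEC-III and 521 and 508 in those of mTEC-IV, with mTEC-IV over mTEC-II by 0.84 ± 0.11 (SE), adjusted p = 1.05e-05, and over mTEC-I by 0.29 ± 0.11 (SE), adjusted p = 0.0377. Klf5 stood at 288 and 277 in the mTEC-I libraries, 150.01 and 155 in those of mTEC-II, 263 and 227 in those of mTEC-III and 449 and 397 in those of mTEC-IV, with mTEC-IV over mTEC-II by 1.46 ± 0.12 (SE), adjusted p = 1.31e-07, and over mTEC-I by 0.58 ± 0.12 (SE), adjusted p = 8.76e-04. Ehf stood at 294 and 293 in the mTEC-I libraries, 157 and 180.4 in those of mTEC-II, 251 and 240.3 in those of mTEC-III and 452 and 425 in those of mTEC-IV, with mTEC-IV over mTEC-II by 1.38 ± 0.12 (SE), adjusted p = 1.49e-07. Elf3 was at 189 and 167 in the mTEC-I libraries, 283 and 258 in those of mTEC-II, 243 and 253 in those of mTEC-III and 309 and 308 in those of mTEC-IV, with mTEC-IV over mTEC-I by 0.80 ± 0.12 (SE), adjusted p = 3.08e-05. With TMM scaling, both mTEC-IV values lay above the other 6 for Klf4, Klf5, Elf3 and Ehf. With the authors' scaling, the lower mTEC-IV value of Klf4, Klf5 and Elf3 fell below a library of another population. The sums at any distance were tested with TMM scaling and all 8 libraries only. Peaks within 10 kb made up 50.9% of the mean Klf5 sum in mTEC-I and 37.0% in mTEC-IV, and 53.0% and 35.4% of the Ehf sum.

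Over pairs of populations, the sums within 10 kb gave 12 calls among the members. Between mTEC-I and mTEC-II 3 members were called (Klf5 and Ehf higher in mTEC-I, Elf3 in mTEC-II), against 12.5% of genes. Between mTEC-I and mTEC-III 3 were called (Grhl2 and Klf5 higher in mTEC-I, Ovol1 in mTEC-III), against 16.1%, and between mTEC-I and mTEC-IV 2 (Ovol1 and Elf3, both higher in mTEC-IV), against 21.9%. Between mTEC-II and mTEC-IV 3 were called (Grhl3, Klf5 and Ehf, all higher in mTEC-IV), against 12.9%, and between mTEC-III and mTEC-IV 1 (Klf5, higher in mTEC-IV), against 11.2%. Between mTEC-II and mTEC-III limma called 0 members (background 0.00663%), with 2 at an unadjusted p under 0.05 and 0 by edgeR or DESeq2. Without 1 library these counts moved, with 1 library left in that population. That of mTEC-I with mTEC-II became 1 without mTEC-I replicate 1, 0 without mTEC-II replicate 1 and 5 without either mTEC-III library. That of mTEC-I with mTEC-III became 0 without mTEC-I replicate 2, and that of mTEC-I with mTEC-IV became 1 without mTEC-I replicate 1 or either mTEC-IV library and 0 without mTEC-I replicate 2. That of mTEC-II with mTEC-IV became 0 and 1 without mTEC-IV replicate 1 and 2, that of mTEC-III with mTEC-IV 0 without either mTEC-I library or mTEC-IV replicate 1, and that of mTEC-II with mTEC-III 1 without mTEC-III replicate 2.

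The authors' own peak lists, called in each library alone, do not use the merged values but come from the same libraries. Each of the 125 peaks was in at least 1 of these lists, so they are not a separate check on the counts above. Of the 125 peaks, the mTEC-I lists overlapped 62 and 51 by at least 1 bp, those of mTEC-II 17 and 29, those of mTEC-III 12 and 23, and those of mTEC-IV 54 and 66. These lists differ in length, from 10525 peaks (mTEC-III replicate 1) to 44288 (mTEC-I replicate 1), and the same lists overlapped 59.1% and 52.5% of all merged peaks for mTEC-I and 39.9% and 48.1% for mTEC-IV, where the members' shares were 49.6%, 40.8%, 43.2% and 52.8%. In all 8 lists 10 peaks were found (against 10.5% of all merged peaks), among them 3 of Grhl1. In both mTEC-IV lists and in no list of another population there were 24 (19.2%, against 8.18% of all merged peaks), of which Klf4 and Klf5 had 7 each. In both mTEC-I lists and no other population there were 20 (16.0%, against 13.6%), of which Ehf had 6 and Klf4 5.

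Among genes past the test, those whose sums within 10 kb most resembled each called member over the 8 libraries were found by Pearson's r of log2 values. They were Agap1 for Grhl2 (r = 0.976), Cdsn for Grhl3 (0.962), Rsrp1 for Ovol1 (0.991), Plxnb2 for Klf5 (0.972), Hook2 for Elf3 (0.975) and Dll1 for Ehf (0.961). Cdsn encodes corneodesmosin, a junction protein of cornified epidermis, and Dll1 a Notch ligand. Among the members themselves Klf5 and Ehf were most alike (0.913). These values describe 8 libraries that share depth and scaling, and the like genes were picked out of 2911 candidates.

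Of 15 tested relatives of the members 6 were called over the populations, against 29.3% of all genes. Between mTEC-I and mTEC-IV 3 were higher in mTEC-IV (background 12.8% of genes) and 0 in mTEC-I (background 9.13%). Between mTEC-II and mTEC-IV 4 were higher in mTEC-IV (background 7.75%) and 0 in mTEC-II (background 5.2%). Ovol3, a close relative of Ovol1 and Ovol2, stood at 0.442 and 1.077 in the mTEC-I libraries, 2.31 and 1.54 in those of mTEC-II, 1.69 and 0 in those of mTEC-III and 27.1 and 30.3 in those of mTEC-IV, which made it open in mTEC-IV and near 0 elsewhere, with a log2 difference of 4.18 ± 0.77 (SE), adjusted p = 0.00181, over mTEC-III. The Krüppel-like genes Klf3, Klf9 and Klf13 were also called and had their highest mean in mTEC-IV. Klf3 stood at 193 and 204 in the mTEC-I libraries, 137 and 119 in those of mTEC-II, 132 and 179 in those of mTEC-III and 252 and 251 in those of mTEC-IV, and Klf9 at 180.1 and 166 in the mTEC-I libraries, 193 and 174 in those of mTEC-II, 179.9 and 219.9 in those of mTEC-III and 293 and 253 in those of mTEC-IV. Klf13 stood at 236 and 259 in the mTEC-I libraries, 167 and 172 in those of mTEC-II, 207 and 224 in those of mTEC-III and 324 and 247 in those of mTEC-IV, with 1 mTEC-I library above the lower mTEC-IV value. Elf5, an Ets factor of mammary and placental epithelium, was highest in mTEC-III (8.89 and 4.32 in the mTEC-I libraries, 9.23 and 10.8 in those of mTEC-II, 30.6 and 22.5 in those of mTEC-III and 15.7 and 10.97 in those of mTEC-IV). Tfcp2l1, of the Grainyhead superfamily, was lowest in mTEC-I (32.9 and 23.7 in the mTEC-I libraries, 54.2 and 38.5 in those of mTEC-II, 54.3 and 56.3 in those of mTEC-III and 69.3 and 54.8 in those of mTEC-IV). The median log2 difference mTEC-I minus mTEC-IV over the 15 was -0.20, against -0.14 over all genes. Of other regulators of stratified epithelium 2 of 13 passed the test, against 29.3% of all genes. Foxa1, a pioneer factor of glandular epithelium, was lowest in mTEC-I (25.3 and 21.02 in the mTEC-I libraries, 64.6 and 61.7 in those of mTEC-II, 98.4 and 116 in those of mTEC-III and 99.3 and 82.5 in those of mTEC-IV), and Tfap2a, an epidermal AP-2 factor, was highest there (95.2 and 91.1 in the mTEC-I libraries, 46.2 and 53.2 in those of mTEC-II, 44.1 and 38.9 in those of mTEC-III and 56.4 and 37.1 in those of mTEC-IV).

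Of the mesenchymal regulators that Grhl2 and Ovol factors oppose, 4 of 6 were tested and 2 were called (29.3% of all genes), in opposite directions. Snai1 was higher in mTEC-IV (52.9 and 60.9 in the mTEC-I libraries, 88.9 and 87.1 in those of mTEC-II, 71.3 and 84.9 in those of mTEC-III and 122 and 109 in those of mTEC-IV) and Snai2 in mTEC-I (74.3 and 83.6 in the mTEC-I libraries, 55.4 and 50.1 in those of mTEC-II, 49.2 and 35.8 in those of mTEC-III and 35.7 and 40.7 in those of mTEC-IV). Of genes of junctions and barrier known to lie downstream of the members, 13 of 22 passed the test, against 29.3% of all genes. Between mTEC-I and mTEC-IV 9 of these were higher in mTEC-IV (background 12.8%), and the median log2 difference mTEC-I minus mTEC-IV was -0.33, against -0.14 over all genes. Tgm5, a transglutaminase of the cornified envelope, stood at 0 and 1.077 in the mTEC-I libraries, 2.31 and 6.93 in those of mTEC-II, 10.2 and 31.7 in those of mTEC-III and 40.7 and 27.7 in those of mTEC-IV. The claudin genes Cldn7 and Cldn3, which encode tight junction proteins, were lowest in mTEC-I. Cldn7 stood at 13.8 and 12.4 in the mTEC-I libraries, 104 and 119 in those of mTEC-II, 84.8 and 121 in those of mTEC-III and 144 and 133 in those of mTEC-IV, a log2 difference of 3.31 ± 0.22 (SE), adjusted p = 3.69e-08, for mTEC-IV over mTEC-I. Cldn3 stood at 32.5 and 35.6 in the mTEC-I libraries, 69.2 and 79.4 in those of mTEC-II, 98.4 and 123 in those of mTEC-III and 115 and 135 in those of mTEC-IV. Not every gene of the list was low in mTEC-I. Between mTEC-I and mTEC-III 6 were higher in mTEC-III (background 7.69%) and 2 in mTEC-I (background 8.44%). Those 2 were Dsc2, by 0.94 ± 0.25 (SE), adjusted p = 0.0147, and Cgn, by 0.71 ± 0.20 (SE), adjusted p = 0.0199. Tgm1, another transglutaminase, had its highest mean in mTEC-I but was not called (adjusted p = 0.123).

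Markers of other cells differed between populations as well, in more than 1 direction. Of 6 thymocyte genes 2 had a merged peak within 10 kb (Lck and Cd4), and their summed level was 53.6 and 41.8 in mTEC-IV and 0.538 to 10.2 elsewhere, while Cd3d, Cd3e, Cd3g and Cd8a had no merged peak within 10 kb. Of the B cell genes reported here Cd79a and Cd79b had one, with sums of 55.7 and 56.4 in mTEC-IV and 3.77 to 19.4 elsewhere, and Ms4a1 had none. Of 5 endothelial genes 3 had a peak, with a sum of 67.2 and 62.2 in mTEC-IV, which came almost wholly from Tek (11.6 and 10.2 in the mTEC-I libraries, 11.5 and 6.93 in those of mTEC-II, 11.9 and 7.14 in those of mTEC-III and 64.3 and 56.9 in those of mTEC-IV), and of 9.17 to 39.2 elsewhere, while Pecam1 and Cdh5 had none. Emcn, of the same endothelial list, was highest in mTEC-I instead (18.2 and 16.2 in the mTEC-I libraries, 0 and 0 in those of mTEC-II, 3.40 and 1.02 in those of mTEC-III and 1.43 and 0.520 in those of mTEC-IV). Of 5 myeloid and dendritic genes 3 had a peak, with sums of 4.00 and 14.0 in mTEC-I and 31.4 to 62.4 elsewhere, while Itgax and Csf1r had none. Of 5 mesenchymal genes 3 had a peak, with sums of 231 and 216 in mTEC-I and 106 to 172 elsewhere, and Pdgfrb and Col1a2 had none. The part of these cells in the differences at the member loci was not tested.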

How the data were processed

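ATAC-seq libraries of 4 sorted mTEC populations, 2 each, were grouped by their titles. Build mm9 and the tools bcl2fastq 2.15.0.4, HOMER and Picard 1.108 were used, per the submitters' processing notes. For the aligner, duplicate removal and any shift of read ends the tool or setting is not given in the sources used here. The authors ran findPeaks on every library separately, per the file headers (fragment length 300 bp, false discovery rate 0.001, 4-fold over the local 10000 bp, at most 1 tag per position), and each peak carries the authors' score, used here only to rank peaks within a list. The authors' merged table gives for each peak and library a deposited signal, in tags per 10000000 total tags, with the nearest start and its distance. All deposited signal values (100%, within the rounding of 0.0051) were whole read ends, which were recovered; read ends may include duplicates, so counting error understates the spread.

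The members and lists were chosen with earlier results of these data known. Because the table holds scaled values and not counts, limma 3.58.1 (R 4.3.3) was fitted to log2(TMM-scaled value + 1) over all 8 libraries, on all merged peaks and on sums per gene within 10 kb, keeping those that reached 10 tags per 10000000 in 2 or more libraries. P-values were adjusted by Benjamini-Hochberg over all features, within the test over the 4 populations and within each of 6 pairs, with a threshold of 0.05. An adjusted p with no tool named is limma's, and an F test covers the 4 populations. Fold changes understate low values because of the added 1. The peaks named are, per gene, the strongest within 1 kb and up to 3 called peaks with the smallest p; others are marked as chosen after their values were seen. Alternatives were other scalings (the authors' own, TMM from peaks near starts, cyclic loess), edgeR 4.0.16 and DESeq2 1.42.0 on read ends, other pseudocounts, filters and distances, thinning to equal depth, a replicate block and leaving out each library; TMM from gene sums and a fit without mTEC-III were added after seeing the data. The fit was tested on simulated data.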

Additional observations from a re-analysis of the deposited data

How the results depend on the processing

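Counts of called members and peaks moved with the scaling, the distance window and single libraries. With the authors' scaling, members called per gene numbered 7 between mTEC-I and mTEC-III, 0 between mTEC-I and mTEC-IV, 4 between mTEC-II and mTEC-III, 0 between mTEC-II and mTEC-IV and 6 between mTEC-III and mTEC-IV, peaks called 43 between mTEC-I and mTEC-III and 6 between mTEC-II and mTEC-III, and 3 peaks were lowest in mTEC-IV and 12 highest in mTEC-I. TMM from peaks within 1 kb gave 0, 1 and 0 members for mTEC-I, mTEC-II and mTEC-III against mTEC-IV, and TMM from gene sums gave 0 for mTEC-I and 0 for mTEC-III against mTEC-IV. Between mTEC-I and mTEC-II, 5 members were called with cyclic loess, edgeR, DESeq2, without both mTEC-III libraries, and with peaks within 50 kb or at any distance. Between mTEC-I and mTEC-IV, 1 was called with cyclic loess and edgeR, 0 with DESeq2, 6 with peaks within 50 kb and 5 at any distance. Between mTEC-III and mTEC-IV it was 0 with DESeq2 (with 19 peaks), 3 within 50 kb and 3 at any distance, and between mTEC-II and mTEC-III 1 and 2 at those distances. With peaks within 1 kb alone, 1 member was called over the populations, 1 in each of mTEC-I with mTEC-II, mTEC-III and mTEC-IV and in mTEC-II with mTEC-IV, and 0 in mTEC-III with mTEC-IV; the Grhl3 difference mTEC-II minus mTEC-IV turned to 0.306. Cyclic loess gave 5 peaks lowest in mTEC-I. A pseudocount of 5 gave 25 peaks highest in mTEC-IV, 8 highest in mTEC-I and 1 called between mTEC-II and mTEC-III. A filter of 20 left 44 peaks over the populations and 15, 36 and 29 for mTEC-I with mTEC-III, mTEC-I with mTEC-IV and mTEC-II with mTEC-IV, as fewer were tested. Thinning to equal depth gave 1 member and 15 peaks between mTEC-I and mTEC-III, 3 peaks lowest in mTEC-IV and 2 highest in mTEC-I. Covering 50% of the peak left 11 found in the list of mTEC-II replicate 1. Among the 10000 best-scored peaks of each list, 10 and 13 were found for mTEC-I, 10 and 9 for mTEC-II, 11 for mTEC-III replicate 2, and 18 and 15 for mTEC-IV. Apart from what the settings themselves remove, the cause was not tested.

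Leaving out 1 library gave 3 to 6 members over the populations, and in the pairs 0 to 5 (mTEC-I with mTEC-II), 0 to 4 (mTEC-I with mTEC-III), 0 to 2 (mTEC-I with mTEC-IV), 0 to 1 (mTEC-II with mTEC-III), 0 to 3 (mTEC-II with mTEC-IV) and 0 to 1 (mTEC-III with mTEC-IV). For peaks it gave 33 to 71 over the populations, and 2 to 29, 5 to 27, 17 to 57, 0 to 2, 9 to 48 and 4 to 30 in the same order of pairs. Peaks highest in mTEC-IV numbered 0 to 14, lowest in mTEC-IV 2 to 4, highest in mTEC-I 0 to 4 and lowest in mTEC-I 0 to 4. The population with 1 library left is assumed to vary like the others. The filter was applied again in each of these fits, so part of a lower count of peaks can be peaks not tested. Same-numbered libraries did not deviate together (correlations of -0.011 to 0.028). Whether the numbers mark shared animals, sorts or batches cannot be told from that. With a replicate block 73 peaks were called over the populations in place of 71, 6 members remained the count per gene, and no call of a named member or peak changed.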
